A study of Homo sapiens with 12 samples.

Results

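The genes described here are the human metallothioneins of the *MT1* and *MT2A* names, the metal-responsive transcription factor *MTF1*, and the zinc transporter genes of the SLC30A and SLC39A families. Members were taken by gene symbol (*MT1* followed by 1 letter, *MT2A*, *MTF1*, and SLC30A or SLC39A followed by a number), which gave 35 of the 43236 symbols counted. They comprise 10 metallothionein genes, *MTF1*, 10 SLC30A genes and 14 SLC39A genes. Transcripts were counted by RNA-seq in MNNG/HOS cells (HOS-MNNG in the sample labels), a human osteosarcoma cell line derived from HOS by chemical transformation. NXP800, an oral small molecule that the study follows as an activator of the kinase GCN2 and of the unfolded protein response, was given at 300 nM, and control cells received its solvent, DMSO. RNA was taken at 6 h or 24 h, with 3 replicates in each of the 4 groups (DMSO 6 h, NXP800 6 h, DMSO 24 h and NXP800 24 h). The results are from 1 cell line grown without any other agent named in the labels. The study describes its results in general as means of independent experiments, with their number in each legend, and its RNA-seq legend gives N = 3. Neither the labels nor its RNA-seq methods say whether these replicates were separate cultures. If they were not, p-values measure only a technical spread between libraries.

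Zinc is kept within narrow limits in cells. SLC30A proteins (ZnT) move zinc out of the cytosol, either out of the cell or into organelles, and SLC39A proteins (ZIP) bring zinc into the cytosol. Metallothioneins are small cysteine-rich proteins that bind zinc and copper and buffer their free levels. *MTF1* encodes a zinc-sensing transcription factor that binds metal response elements, and it is known to activate metallothionein genes and *SLC30A1* and to repress *SLC39A10* when zinc rises. Neither zinc nor *MTF1* activity was measured in these data.

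Libraries held between 30810614 and 31947656 counts on genes. Reads on no annotated gene made up 6.66 to 8.14% of a 6 h library and 2.73 to 3.67% of a 24 h library, so time and library set cannot be told apart, and each NXP800 group was set against the DMSO group of its own time. Of 8 mesenchymal markers, 7 lay above 1 CPM on average over all libraries (CPM is explained below). Their sum was 5359.7 to 5665 CPM in DMSO 6 h, 4756 to 4931 in NXP800 6 h, 6261 to 7101 in DMSO 24 h and 4012 to 4877 in NXP800 24 h, so it was lower in the NXP800 libraries at both times. The marker below 1 CPM was *COL1A2*, a defining collagen gene of osteoblasts, at no more than 0.378 CPM in any library. Of 12 markers of epithelium, leukocytes, endothelium, liver and red cells, 2 lay above 1 CPM on average (*EPCAM* and *CD14*) and 2 had no count in any library (*KRT20* and *HBB*). The sum of these 12 ranged from 9.06 to 11.4 CPM in DMSO 6 h, 7.03 to 8.38 in NXP800 6 h, 8.90 to 10.5 in DMSO 24 h and 10.97 to 11.6 in NXP800 24 h, and the part of either sum in the results was not tested.

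The promoter sequences below are shown because they hold letters of the metal response element, the motif that *MTF1* is known to bind, and because the genes behind them did not respond alike. Each is the RefSeq window (GRCh38.p14) from 250 bases before to 50 bases after a transcription start, written 5′ to 3′ on the strand of the gene, with each match to TGCACNC or TGCGCNC, on either strand, in capitals. No matches overlapped each other in these windows. *SLC30A1* (chr1:211579112-211579411, minus strand), *SLC39A10* (chr2:195656976-195657275, plus strand, the second of its windows), *MT2A* (chr16:56608334-56608633, plus strand) and *MT1X* (chr16:56682220-56682519, plus strand) are given in turn.
SLC30A1: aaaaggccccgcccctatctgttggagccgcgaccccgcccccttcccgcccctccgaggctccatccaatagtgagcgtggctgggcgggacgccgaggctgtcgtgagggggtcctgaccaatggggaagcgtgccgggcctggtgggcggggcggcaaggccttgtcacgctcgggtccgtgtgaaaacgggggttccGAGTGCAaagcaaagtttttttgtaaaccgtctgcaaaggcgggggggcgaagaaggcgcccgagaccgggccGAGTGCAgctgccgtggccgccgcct
SLC39A10: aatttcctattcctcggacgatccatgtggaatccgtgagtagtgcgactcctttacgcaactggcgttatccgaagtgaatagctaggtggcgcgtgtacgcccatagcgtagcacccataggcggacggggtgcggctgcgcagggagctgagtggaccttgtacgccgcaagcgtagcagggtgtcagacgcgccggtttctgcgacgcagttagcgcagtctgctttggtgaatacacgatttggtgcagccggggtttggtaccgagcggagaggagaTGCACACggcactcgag
MT2A: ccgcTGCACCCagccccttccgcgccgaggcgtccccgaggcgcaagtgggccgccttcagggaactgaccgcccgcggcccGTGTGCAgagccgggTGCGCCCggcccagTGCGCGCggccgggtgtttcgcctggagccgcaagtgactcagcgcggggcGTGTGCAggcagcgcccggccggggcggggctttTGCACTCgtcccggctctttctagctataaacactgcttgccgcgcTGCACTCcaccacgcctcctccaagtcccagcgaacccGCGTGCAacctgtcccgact
MT1X: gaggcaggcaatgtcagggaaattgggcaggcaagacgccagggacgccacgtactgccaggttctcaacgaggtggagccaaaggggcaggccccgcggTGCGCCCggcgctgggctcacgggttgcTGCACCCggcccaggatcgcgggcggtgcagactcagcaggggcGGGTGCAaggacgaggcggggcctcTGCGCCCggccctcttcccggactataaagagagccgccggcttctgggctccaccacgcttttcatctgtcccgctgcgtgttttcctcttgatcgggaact

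*SLC30A1* held 2 matches, 49 bases before and 25 bases after its start. *SLC39A10* held 1 match, 34 bases after the transcription start of this window, and none in its other window. *MT2A* held 8 matches and *MT1X* 4, and windows of *MTF1* itself held none. *MT1H* also held 8, and *MT1B* and *SLC30A2* held 3 each, and these genes had too few counts to be tested. The 26 members with a window had 35 windows together, and 16 of these members held at least 1 match in some window. Of all 35116 promoter windows of this length, 29.6% held a match. The first is a share of genes and the second a share of windows. They are not like for like, since several windows per gene can only raise the first. At least 4 matches were found in 0.601% of all windows. The letters TGATGNAAT, the composite element bound by C/EBP and ATF factors such as *ATF4*, occurred in no member's window and in 0.991% of all windows. A match is a description of letters in a window and says nothing of binding in these cells. Promoters of *MT1A*, *MT1E*, *MT1F*, *MT1G*, *MT1L*, *MT1M*, *SLC30A8*, *SLC39A4* and *SLC39A14* were not analysed here.

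Of the 35 members, 27 had enough counts to be tested and 8 did not (*MT1B*, *MT1H*, *SLC30A2*, *SLC30A8*, *SLC30A10*, *SLC39A2*, *SLC39A5* and *SLC39A12*), which had 0 to 8 counts in a library. Levels are given as CPM, counts scaled to a common library total with TMM factors, and levels of different genes are compared only as CPM per kb of the canonical transcript. In DMSO 6 h libraries *MT2A* had the highest level per length, 1998 ± 245 CPM per kb (SD, n = 3). *MT1E* followed at 182 ± 19.3 CPM per kb, not separated beyond the spread from *SLC39A1* at 168 ± 3.92. Next came *SLC39A7* at 121 ± 8.98, then *MT1X* at 52.2 ± 5.30, *SLC39A14* at 45.9 ± 2.30 and *MT1A* at 31.6 ± 3.70 CPM per kb, and of these *MT1X* and *SLC39A14* overlapped within their SDs, so their order is not separated. *MTF1* and *SLC30A1* were low, at 3.31 ± 0.168 and 2.75 ± 0.198 CPM per kb. *SLC30A3*, a transporter of synaptic vesicles, was the lowest of the tested members at 0.0386 ± 0.0259 CPM per kb. *MT1L* is left out of this order because its annotated transcript of 186 bases is too short for the scale.

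At 6 h, NXP800 changed 18 of the 27 tested members at an adjusted p below 0.05 (edgeR's quasi-likelihood test, adjusted across all tested genes by the Benjamini-Hochberg method), while 52.8% of all 15979 tested genes were called. Of these members 7 rose (25.0% of all genes rose) and 11 fell (27.8% of all genes fell). At 24 h, 17 members were called against 56.0% of all genes, with 8 up (27.5% of all genes) and 9 down (28.6%). With scaling to library size alone the split at 24 h was 11 up and 7 down. Over all genes that scaling gave 5327 up and 3747 down, against 4387 up and 4566 down in the main fit. The share of members called was thus near the background at both times. DMSO and NXP800 libraries did not overlap for 18 tested members at 6 h, against 62.0% of all tested genes, and for 21 at 24 h, against 59.1%. The median log2 fold change of the tested members was 0.046 at 6 h, beside -0.046 for all genes, and -0.068 at 24 h, beside -0.0033 for all genes. Changes over 2-fold were seen for 3 members at 6 h (*SLC30A1*, *SLC39A10* and *MT1G*, 11.2% of all genes) and for 1 at 24 h (*MT1G*, 14% of all genes).

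By family, only the SLC39A calls were mostly down at both times. Over all tested genes, 25.0% rose and 27.8% fell at 6 h, with a median log2 fold change of -0.046. At 24 h 27.5% of all genes rose and 28.6% fell, with a median of -0.0033. SLC39A importers had 1 member up and 7 down among 11 tested at 6 h (median log2 fold change -0.33) and 2 up and 7 down at 24 h (median -0.26), or 2 up and 5 down at 24 h with scaling to library size alone. Metallothioneins had 3 up and 2 down among 8 tested at 6 h (median 0.12) and 4 up and 2 down at 24 h (median 0.18). SLC30A transporters had 2 up and 2 down among 7 tested at 6 h (median 0.067), or 2 up and 1 down with scaling to library size alone or DESeq2's size factors, and 2 up and none down at 24 h (median 0.18), or 4 up with scaling to library size alone. Scaling to library size alone also moved the median log2 fold change of all genes at 24 h, from -0.0033 to 0.086. Differences between the families were not tested. In all, 13 of the 27 tested members were called at both times, each in the same direction. *MT1F*, *MT1G*, *MT1X*, *SLC30A1* and *SLC39A14* rose, against 16.5% of all genes tested that rose at both times. *MT1A*, *MT1L*, *SLC39A1*, *SLC39A3*, *SLC39A6*, *SLC39A7*, *SLC39A8* and *SLC39A10* fell, against 18.5% of all genes tested. In bulk RNA, fewer cells that carry a transcript and fewer copies in each cell cannot be told apart.

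**Figure D1:**
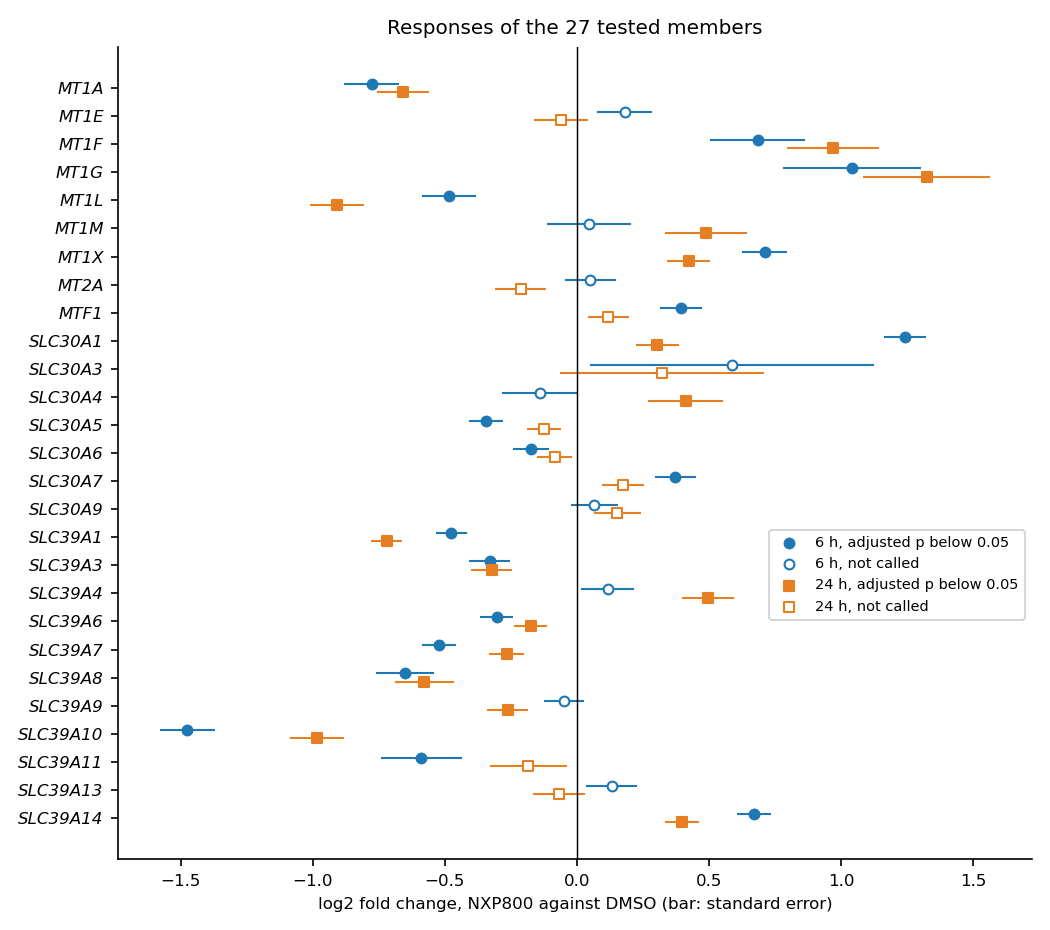
Log2 fold change of NXP800 against DMSO (horizontal axis) for each of the 27 tested members (rows), at 6 h (blue circles) and 24 h (orange squares). Bars are standard errors worked out from the F statistic of edgeR's test, and filled symbols passed an adjusted p of 0.05. *SLC30A1* at 6 h (1.24) and *SLC39A10* at 6 h (-1.47) lie farthest apart among the transporters, and most SLC39A genes lie left of 0.

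The zinc sensor *MTF1* rose modestly at 6 h. Its level was 25.3, 25.8 and 27.8 CPM in the DMSO libraries and 35.5, 33.3 and 34.9 CPM in the NXP800 libraries, and the groups did not overlap. The log2 fold change was 0.39 ± 0.079 (standard error, used for all fold changes below), with an adjusted p of 5.66e-04 in edgeR's quasi-likelihood test, from which all adjusted p-values below come unless another fit is named. At 24 h *MTF1* measured 36.3, 30.2 and 33.4 CPM in the DMSO libraries and 38.9, 35.02 and 34.6 CPM in the NXP800 libraries, with overlapping groups (0.12 ± 0.079, adjusted p = 0.209). With scaling to library size alone the 24 h difference passed the threshold (0.21, adjusted p = 0.0307).

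*SLC30A1*, which encodes ZnT1, the zinc exporter of the plasma membrane, had the largest measured rise of the tested members at 6 h, with a standard error that overlapped that of *MT1G*. Its 6 h level was 17.4, 16.1 and 15.1 CPM in the DMSO libraries and 39.7, 39.1 and 36.05 CPM in the NXP800 libraries. The NXP800 libraries all lay far above the highest DMSO library, and the log2 fold change was 1.24 ± 0.079, adjusted p = 4.17e-09. At 24 h it measured 15.3, 13.8 and 15.1 CPM in the DMSO libraries and 18.00, 17.7 and 18.9 CPM in the NXP800 libraries. The groups still did not overlap, but the log2 fold change was 0.30 ± 0.082, adjusted p = 0.00458. DMSO levels of *SLC30A1* were close at both times, and NXP800 levels were lower at 24 h than at 6 h, though time and library set cannot be told apart.

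Organelle zinc transporters of the SLC30A family that were called had smaller changes. *SLC30A5* and *SLC30A6*, which encode partners in a complex that loads zinc into the early secretory pathway, fell at 6 h with log2 fold changes of -0.34 ± 0.063, adjusted p = 2.48e-04, and -0.17 ± 0.067, adjusted p = 0.0417. *SLC30A7*, a Golgi zinc transporter, rose at 6 h (0.37 ± 0.078, adjusted p = 7.73e-04), and this became 0.20 with a replicate block plus offsets for GC content and length. At 24 h none of these passed the main test: the log2 fold changes were -0.12, -0.084 and 0.18. In the fit with a replicate block, each replicate number has its own baseline at each time. There *SLC30A5* (adjusted p = 0.0319) and *SLC30A7* (adjusted p = 0.0158) passed at 24 h in the direction they had at 6 h. *SLC30A4*, an endosomal transporter, rose at 24 h (0.41 ± 0.14, adjusted p = 0.02) and was at -0.14 at 6 h (adjusted p = 0.436). *SLC30A9*, a mitochondrial transporter, was not called at either time, though the replicate block called it up at 24 h (0.15, adjusted p = 0.00973). *SLC30A3*, with 1 to 15 counts in a library, was not called (0.59 ± 0.54 at 6 h and 0.32 ± 0.39 at 24 h).

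The call for *SLC30A6* at 6 h was lost without any 1 of DMSO 6 h replicates 1 and 2, NXP800 6 h replicates 1, 2 and 3, or NXP800 24 h replicate 2, with adjusted p between 0.0591 and 0.225 and a log2 fold change of -0.11 without DMSO 6 h replicate 1. It was also lost with DESeq2's size factors (adjusted p = 0.0654), library size alone (0.0691), no filter (0.114), only the 6 h libraries (0.0767) and DESeq2's Wald test (0.0881). That for *SLC30A4* at 24 h was lost without DMSO 24 h replicate 1 or 2 or NXP800 24 h replicate 1 (adjusted p 0.0508 to 0.073), with no filter (0.0557) and in DESeq2's Wald test (0.052). For *SLC30A7* at 24 h a call up was gained without NXP800 24 h replicate 3 (0.25, adjusted p = 0.0149).

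Metallothionein genes did not move as a block. *MT2A*, the highest of them per length, was not called at either time, while several *MT1* genes rose and others fell. At 6 h *MT2A* measured 832, 880.3 and 691 CPM in the DMSO libraries and 913, 789 and 788 CPM in the NXP800 libraries. The groups overlapped, and the log2 fold change was 0.051 ± 0.10, adjusted p = 0.681, with the sign turning to -0.044 without DMSO 6 h replicate 3 and to -0.022 without NXP800 6 h replicate 1. At 24 h its level was 1358, 1437 and 1435 CPM in the DMSO libraries and 1281, 1071 and 1298 CPM in the NXP800 libraries. All NXP800 libraries lay below all DMSO libraries, with a log2 fold change of -0.21 ± 0.10, adjusted p = 0.0707, or -0.22 and adjusted p = 0.0114 with the replicate block. It also passed the threshold at 24 h without DMSO 6 h replicate 3 (-0.21, adjusted p = 0.0414), and was at -0.10 without NXP800 24 h replicate 2 (adjusted p = 0.371).

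*MT1X*, *MT1F* and *MT1G* rose at both times. *MT1X* measured 23.4, 20.7 and 19.2 CPM in the DMSO libraries and 38.5, 32.5 and 32.5 CPM in the NXP800 libraries at 6 h, without overlap (0.71 ± 0.086, adjusted p = 4.17e-06). At 24 h it measured 42.1, 42.6 and 39.3 CPM in the DMSO libraries and 54.3, 54.3 and 57.7 CPM in the NXP800 libraries, again without overlap (0.42 ± 0.083, adjusted p = 3.98e-04). *MT1F* measured 6.65, 5.23 and 4.10 CPM in the DMSO libraries and 11.1, 7.71 and 6.85 CPM in the NXP800 libraries at 6 h. These groups were separated narrowly, with the highest DMSO library just under the lowest NXP800 library (0.68 ± 0.18, adjusted p = 0.00463), and the change was 0.45 without NXP800 6 h replicate 1 (adjusted p = 0.0404). At 24 h *MT1F* measured 7.80, 7.26 and 5.97 CPM in the DMSO libraries and 13.97, 13.6 and 13.7 CPM in the NXP800 libraries, well apart (0.97 ± 0.17, adjusted p = 1.83e-04). *MT1G* was the tested metallothionein with the lowest level per length, had 27 to 134 counts in a library and measured 1.65, 0.914 and 0.820 CPM in the DMSO libraries and 3.07, 2.05 and 1.84 CPM in the NXP800 libraries at 6 h. Its groups were likewise separated narrowly at 6 h (1.04 ± 0.26, adjusted p = 0.00303). The 24 h levels of *MT1G* were 1.74, 1.65 and 1.37 CPM in the DMSO libraries and 4.33, 3.35 and 4.28 CPM in the NXP800 libraries. That was the largest measured rise of the tested members at 24 h (1.32 ± 0.24, adjusted p = 2.02e-04), and its standard error overlapped that of *MT1F*. *SLC30A2*, with too few counts to be tested, had 0 to 2 counts in the DMSO 24 h libraries and 5 to 8 in the NXP800 24 h libraries. At 6 h it had 1 to 2 counts in the DMSO libraries and 1 to 7 in the NXP800 libraries, with overlap, and no change was tested at either time.

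*MT1A* and *MT1L* fell at both times. *MT1A* measured 14.2, 12.01 and 11.4 CPM in the DMSO libraries and 7.34, 6.82 and 7.74 CPM in the NXP800 libraries at 6 h, with no overlap (-0.78 ± 0.10, adjusted p = 1.12e-05). Its 24 h levels were 20.9, 23.6 and 21.5 CPM in the DMSO libraries and 14.03, 13.1 and 14.7 CPM in the NXP800 libraries, again without overlap (-0.66 ± 0.10, adjusted p = 2.78e-05). Both groups were higher than at 6 h, though time and library set cannot be told apart. *MT1L*, a transcribed pseudogene in the RefSeq annotation, had 6 h levels of 67.6, 68.4 and 57.3 CPM in the DMSO libraries and 50.4, 48.6 and 38.99 CPM in the NXP800 libraries. The groups did not overlap (-0.48 ± 0.10, adjusted p = 8.85e-04), and the change was -0.26 with the replicate block and offsets for GC content and length. At 24 h *MT1L* measured 92.04, 87.6 and 97.95 CPM in the DMSO libraries and 51.7, 42.8 and 53.6 CPM in the NXP800 libraries, a wider gap (-0.91 ± 0.10, adjusted p = 1.58e-06). *MT1M* was called at 24 h only, as higher (0.49 ± 0.16, adjusted p = 0.0139), with 0.046 ± 0.16 at 6 h, and that call was lost without DMSO 24 h replicate 3 (adjusted p = 0.0715) or NXP800 24 h replicate 3 (adjusted p = 0.0748). *MT1E*, next to *MT2A* in level per length, was not called at 6 h (0.18 ± 0.10, adjusted p = 0.153) or 24 h (-0.058 ± 0.10, adjusted p = 0.646), and with the replicate block it passed at 6 h (0.18, adjusted p = 0.00712).

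**Figure D2:**
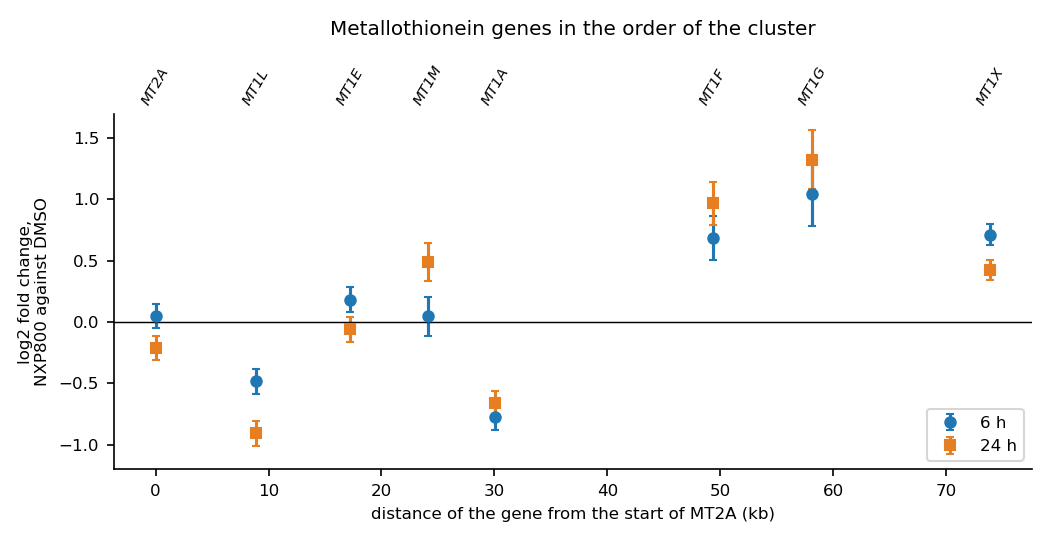
Log2 fold change of NXP800 against DMSO (vertical axis, bars are standard errors) for the 8 tested metallothionein genes against the distance of each gene from the start of *MT2A* in kb (horizontal axis), at 6 h (blue circles) and 24 h (orange squares). *MT1F*, *MT1G* and *MT1X*, farthest from *MT2A*, lie above 0 at both times, and *MT1L* and *MT1A* lie below 0. *MT1M*, among the nearer genes, also lies above 0, within its standard error at 6 h.

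The metallothionein genes stand in 1 cluster on chromosome 16 (GRCh38.p14, plus strand), from *MT2A* at chr16:56608584-56609497 to *MT1X* at chr16:56682470-56684196. In the order of the cluster the tested genes are *MT2A*, *MT1L*, *MT1E*, *MT1M*, *MT1A*, *MT1F*, *MT1G* and *MT1X*. The 3 that rose at both times were the last 3 in this order. Both genes that fell thus lay before them, as did *MT1M*, which rose at 24 h only. This arrangement was noticed after the values were seen and carries no test. The transcripts are similar, with up to 93.6% identity between *MT1A* and *MT1L* and 88.6% between *MT1G* and *MT1H*, so some reads could have been given to a copy. No stretch of 100 bases, the read length, in the canonical transcripts of *MT1A*, *MT1E*, *MT1F*, *MT1G*, *MT1M* or *MT2A* was found in the transcript of another gene. The transcript of *MT1L* is covered whole by another GENCODE gene on its strand, and 18.6% of that of *MT1X* is. Reads were counted on RefSeq genes, whose overlaps were not examined, so how far this bears on the values of either gene is not known.

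The summed metallothionein level does not depend on which of these genes a read was given to. DMSO 6 h libraries summed to 1051 ± 119 CPM (SD, n = 3) and NXP800 6 h libraries to 1092 ± 102 CPM, a log2 ratio of 0.056. The groups overlapped, and the ratio was negative without DMSO 6 h replicate 3 (-0.035) or NXP800 6 h replicate 1 (-0.023). At 24 h the sums were 1868 ± 63.1 CPM for DMSO and 1639.7 ± 163 CPM for NXP800, a log2 ratio of -0.19. It was -0.084 without NXP800 24 h replicate 2 and -0.10 with scaling to library size alone. *MT2A* made up 73.2 to 77.8% of this sum in every library and *MT1E* 12.1 to 17.7%, so the sum largely follows genes that were not called. These sums are descriptions and carry no test.

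**Figure D3:**
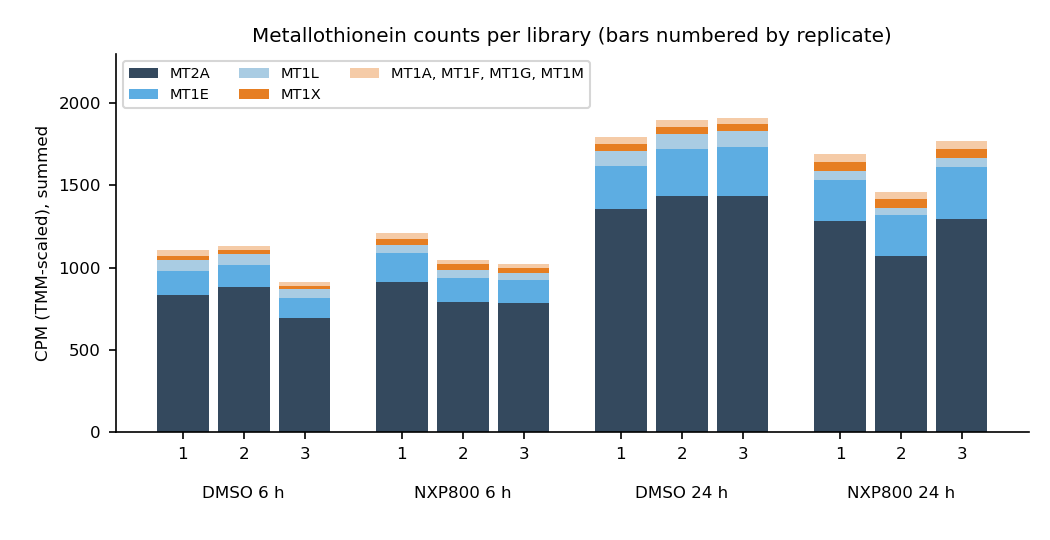
Summed CPM of the metallothionein genes (vertical axis) in each of the 12 libraries, numbered by replicate within the 4 groups, with colours for *MT2A*, *MT1E*, *MT1L*, *MT1X* and the sum of *MT1A*, *MT1F*, *MT1G* and *MT1M*. *MT2A* fills 73.2 to 77.8% of every bar. Bars of the 24 h groups are higher than those of the 6 h groups, though time and library set cannot be told apart.

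Among the zinc importers, *SLC39A10* had the largest measured fall of the tested members at both times, although at 24 h its standard error overlapped that of *MT1L*. It encodes ZIP10, a plasma membrane importer that forms a complex with the product of *SLC39A6*. At 6 h it measured 19.4, 21.7 and 18.2 CPM in the DMSO libraries and 6.11, 7.83 and 7.40 CPM in the NXP800 libraries. The highest NXP800 library was far below the lowest DMSO library (-1.47 ± 0.10, adjusted p = 1.25e-08). At 24 h the levels were 18.03, 18.4 and 19.6 CPM in the DMSO libraries and 9.97, 9.37 and 9.00 CPM in the NXP800 libraries, still without overlap (-0.98 ± 0.10, adjusted p = 6.75e-07). *SLC39A6* fell less, with -0.30 ± 0.064, adjusted p = 8.33e-04 in the 6 h comparison and -0.17 ± 0.064, adjusted p = 0.0284 in that at 24 h. The 24 h call of *SLC39A6* was lost with scaling to library size alone (-0.083, adjusted p = 0.302), with no filter (adjusted p = 0.164), with only the 24 h libraries (adjusted p = 0.103), and without DMSO 24 h replicate 3, NXP800 24 h replicate 1 or NXP800 24 h replicate 2 (adjusted p 0.0667 to 0.135).

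*SLC39A14* was the importer that rose at both times. Its product, ZIP14, carries zinc, iron and manganese across the plasma membrane. Levels at 6 h were 227, 208 and 208 CPM in the DMSO libraries and 348, 359 and 315 CPM in the NXP800 libraries, well separated (0.67 ± 0.065, adjusted p = 3.45e-07). At 24 h they were 235, 225 and 228 CPM in the DMSO libraries and 301, 315 and 290.0 CPM in the NXP800 libraries, again without overlap (0.40 ± 0.064, adjusted p = 6.54e-05). *SLC39A8*, its closest relative and also a carrier of zinc and manganese, went the other way. It measured 34.7, 31.5 and 32.4 CPM in the DMSO libraries and 20.8, 21.02 and 20.9 CPM in the NXP800 libraries at 6 h, and the NXP800 libraries were nearly equal to each other and below every DMSO library (-0.65 ± 0.11, adjusted p = 1.13e-04). The 24 h levels were 23.8, 26.1 and 30.1 CPM in the DMSO libraries and 16.97, 15.1 and 21.5 CPM in the NXP800 libraries, more scattered but without overlap (-0.58 ± 0.11, adjusted p = 3.61e-04).

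*SLC39A1* and *SLC39A7* were the most abundant importers per length. *SLC39A1*, a widely expressed importer of the plasma membrane, measured 352, 341 and 337 CPM in the DMSO libraries and 257, 241 and 244 CPM in the NXP800 libraries at 6 h (-0.48 ± 0.058, adjusted p = 4.60e-06). At 24 h it measured 433, 447 and 452 CPM in the DMSO libraries and 273, 256 and 280.4 CPM in the NXP800 libraries (-0.72 ± 0.058, adjusted p = 3.67e-08). Neither time showed any overlap. *SLC39A1* levels with NXP800 were close at both times while the DMSO level was higher at 24 h, though time and library set cannot be told apart. GENCODE genes on the same strand cover 60.8% of its exons. The reads were counted on RefSeq genes, whose overlaps were not examined, so any effect on its counts is not known. *SLC39A7*, which releases zinc from the endoplasmic reticulum, measured 311, 298 and 269 CPM in the DMSO libraries and 209, 197 and 205 CPM in the NXP800 libraries at 6 h (-0.52 ± 0.066, adjusted p = 6.40e-06). The 24 h levels of *SLC39A7* were 318, 341 and 358 CPM in the DMSO libraries and 278, 287 and 282 CPM in the NXP800 libraries (-0.27 ± 0.066, adjusted p = 0.0026), or -0.17 with scaling to library size alone (adjusted p = 0.0258). Groups did not overlap at either time.

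*SLC39A11*, an importer found at the Golgi, fell at 6 h. Its 6 h levels were 11.8, 14.6 and 10.1 CPM in the DMSO libraries and 7.89, 9.58 and 6.75 CPM in the NXP800 libraries, with a narrow gap between the groups (-0.59 ± 0.15, adjusted p = 0.00396). At 24 h it measured 15.8, 16.9 and 16.96 CPM in the DMSO libraries and 11.9, 15.3 and 16.5 CPM in the NXP800 libraries, with overlap (-0.18 ± 0.15, adjusted p = 0.299, or 0.0416 with the replicate block). Without NXP800 24 h replicate 1 the 24 h value of *SLC39A11* was -0.057 (adjusted p = 0.769). *SLC39A3*, a plasma membrane importer, fell in the 6 h comparison (-0.33 ± 0.079, adjusted p = 0.00227) and likewise at 24 h (-0.32 ± 0.077, adjusted p = 0.00212), and its 6 h change was -0.20 with the replicate block and offsets for GC content and length. *SLC39A9*, of the secretory pathway, fell at 24 h (-0.26 ± 0.077, adjusted p = 0.00856) and was at -0.048 at 6 h. Its 24 h change was -0.17 without NXP800 24 h replicate 3 (adjusted p = 0.0467) and with scaling to library size alone, where it was not called (adjusted p = 0.0914). *SLC39A4*, the importer mutated in acrodermatitis enteropathica, rose at 24 h (0.50 ± 0.10, adjusted p = 4.24e-04) and was at 0.12 at 6 h. *SLC39A13*, whose loss causes a connective tissue disorder, was not called (0.13 ± 0.10 at 6 h and -0.068 ± 0.10 at 24 h).

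**Figure D4:**
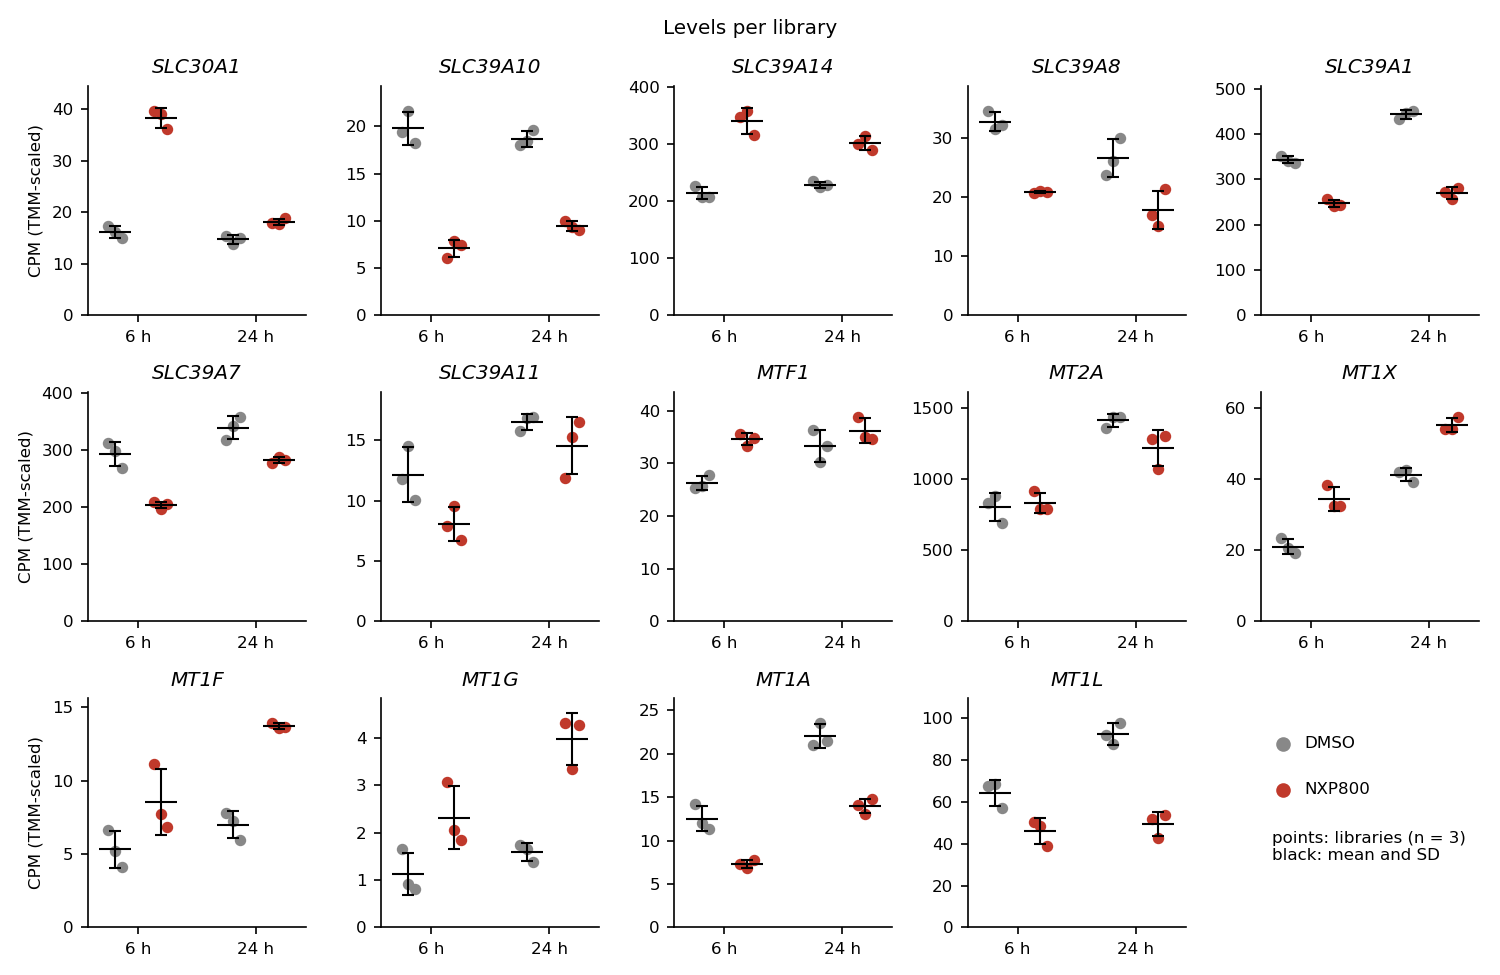
Level in CPM after TMM scaling (vertical axes, starting at 0) of 14 members in each library at 6 h and 24 h, with DMSO in grey, NXP800 in red, and the mean and SD of 3 libraries in black. *SLC30A1* lies between 36.05 and 39.7 CPM in NXP800 6 h, *SLC39A10* lies below its DMSO level at both times, and the *MT2A* groups overlap at 6 h.

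To ask whether the responses differed between the times, the 24 h response was set against the 6 h response in the same model. The difference passed for 5 members, 1 of them positive and 4 negative, against 25.8% of all genes (12% positive and 13.8% negative). In the fit with the replicate block 16 passed against 39.3% of all genes, of which 7 were positive (18.4% of all genes) and 9 negative (20.9%). With scaling to library size alone 6 passed, 5 positive and 1 negative, while over all genes 2463 were positive and 1670 negative. The response of *SLC30A1* dropped by 0.94 ± 0.11 on the log2 scale from 6 h to 24 h (adjusted p = 2.41e-05), and this held in every alternative run. The rise of *SLC39A14* was also smaller at 24 h (-0.27 ± 0.091, adjusted p = 0.0367), and the fall of *SLC39A10* was less deep (0.49 ± 0.15, adjusted p = 0.0217). The falls of *SLC39A1* (-0.24 ± 0.082, adjusted p = 0.0381) and *MT1L* (-0.42 ± 0.14, adjusted p = 0.0414) were deeper at 24 h.

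Of the 5, only *SLC30A1* kept its call without each single library, and the count was 1 without NXP800 6 h replicate 1, 2 without DMSO 6 h replicate 2 or NXP800 6 h replicate 2, and 3 without DMSO 6 h replicate 3, DMSO 24 h replicate 1 or 3, or NXP800 24 h replicate 2. The call for *SLC39A10* was lost without DMSO 6 h replicate 2 (adjusted p = 0.0619) or NXP800 6 h replicate 1 (adjusted p = 0.0672). That for *MT1L* was lost without any 1 of DMSO 6 h replicates 1 and 3, NXP800 6 h replicates 1 and 2, DMSO 24 h replicates 1 and 3 and NXP800 24 h replicate 2 (adjusted p 0.0509 to 0.116). For *SLC39A1* it was lost without any 1 of 9 libraries (adjusted p 0.0534 to 0.106), leaving the exceptions DMSO 24 h replicate 1 and NXP800 24 h replicates 1 and 3. For *SLC39A14* it was also lost without any 1 of 9 (adjusted p 0.0503 to 0.0993), leaving DMSO 6 h replicate 1, NXP800 6 h replicate 3 and NXP800 24 h replicate 2. With library size alone the calls of *MT1L* (adjusted p = 0.063), *SLC39A1* (0.0867) and *SLC39A14* (0.123) were lost, and with no filter those of *SLC39A1* (0.165) and *SLC39A14* (0.0951). Of the members not called, *MT1X* passed without DMSO 6 h replicate 1 (0.0396), *MTF1* without DMSO 24 h replicate 2 (0.0394) or NXP800 24 h replicate 1 (0.0483), *SLC30A4* without NXP800 24 h replicate 3 (0.0432), *SLC39A4* without DMSO 24 h replicate 2 (0.0463), and *SLC39A7* without DMSO 6 h replicate 3 (0.0233) or DMSO 24 h replicate 3 (0.0401).

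Among members not called, the replicate block called *MT1M* (0.0375), *SLC30A4* (0.0305), *SLC30A5* (0.0161), *SLC39A4* (0.0256), *SLC39A7* (0.00976) and *SLC39A11* (0.012) as positive differences, with the adjusted p of that fit in parentheses. It called *MT1E* (0.0151), *MT1X* (0.0102), *MT2A* (0.0369), *MTF1* (0.0149) and *SLC39A9* (0.0179) as negative ones.

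Other genes of metal handling were taken from a list of 28 names covering metallothionein relatives, copper and iron carriers, copper chaperones and genes tied to metal-responsive transcription. Of these, 22 had a row and were not members, and 19 were tested. At 6 h 6 rose and 8 fell, and at 24 h 7 rose and 5 fell, with median log2 fold changes of -0.029 and 0.091. Over all genes tested, 25.0% rose and 27.8% fell at 6 h, and 27.5% rose and 28.6% fell at 24 h. *SLC40A1*, which encodes ferroportin, the iron exporter, measured 1.11, 1.04 and 0.881 CPM in the DMSO libraries and 0.215, 0.367 and 0.246 CPM in the NXP800 libraries at 6 h. It fell without overlap at 6 h (-1.86 ± 0.32, adjusted p = 1.58e-04) and was at -1.03 ± 0.31, adjusted p = 0.00886 at 24 h, where the levels were 0.803, 1.11 and 0.858 CPM in the DMSO libraries and 0.363, 0.314 and 0.670 CPM in the NXP800 libraries. *TMEM163*, a zinc efflux protein of vesicles and the plasma membrane, fell at 6 h (-1.01 ± 0.13, adjusted p = 5.68e-06) and further at 24 h (-2.23 ± 0.14, adjusted p = 2.49e-09). Its 24 h levels were 10.4, 13.5 and 10.6 CPM in the DMSO libraries and 2.34, 2.32 and 2.68 CPM in the NXP800 libraries, and the difference of its responses also passed (-1.22 ± 0.19, adjusted p = 2.24e-04). *ATP7B*, a copper-exporting ATPase, fell at 6 h (-1.06 ± 0.20, adjusted p = 3.44e-04) and was not called at 24 h (log2 fold change -0.11 ± 0.18, adjusted p = 0.611). *HMOX1*, the heme-degrading enzyme heme oxygenase, rose at both times (0.72 ± 0.13, adjusted p = 1.60e-04 at 6 h, and 1.38 ± 0.13, adjusted p = 3.04e-07 at 24 h), and its 24 h levels were 4.38, 4.77 and 4.70 CPM in the DMSO libraries and 13.04, 10.7 and 12.2 CPM in the NXP800 libraries.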

How the data were processed

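Per the labels, polyadenylated RNA of MNNG/HOS cells was made into strand-specific libraries. The authors trimmed reads with fastp 0.20.1, aligned them to hg38 with STAR 2.7.5a and assigned them to RefSeq genes with HTSeq 0.12.4, and deposited the raw counts, not normalized. The strand setting and counting mode are not given in the sources used here. The 5 counter entries that name no gene were left out.

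The analysis used edgeR 4.0.16 under R 4.3.3. filterByExpr kept 15979 genes, scaling was by TMM, and 1 model of the 4 groups was fitted over all 12 libraries (common dispersion 0.00723). edgeR's quasi-likelihood test gave NXP800 against DMSO at 6 h and at 24 h, and the difference of these responses. The standard error of a log2 fold change is its size divided by the square root of the F statistic of that test. A gene was called at a Benjamini-Hochberg adjusted p below 0.05 over all tested genes, and is written as called, rose or fell only then. Replicates of a group differed by more than sampling noise (chi-square per degree of freedom 7.36 to 26.3), so each was counted once. At this depth the counting error limits only low genes.

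Members and gene lists were chosen with earlier results of these data known. Values in every library are given for *MT2A*, *MTF1*, *SLC30A1* and members called at a time with over 0.5 of log2 change either way, or called in the difference of the responses, and other metal genes are named past 1.

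Libraries with the same replicate number in their titles shared variation. After removal of group means, same-numbered DMSO and NXP800 libraries correlated across genes with r of 0.16 to 0.33 (6 pairs), and others with -0.27 to 0.058. The main fit leaves this pairing out, and the replicate block takes it in. With the block 19 members were called at 6 h and 22 at 24 h, against 18 and 17 in the main fit. For all genes the block called 9953 and 10411, against 8435 and 8953. Alternatives were DESeq2 1.42.0's size factors and Wald test, library size alone, no filter, a mean of at least 50 counts, only the 6 libraries of a time, the replicate block without and with offsets for GC content and length, an adjusted p below 0.01, and each library left out. The steps were tested on simulated data. Positions and promoter windows are from RefSeq (GRCh38.p14), and transcript lengths and exon overlaps from GENCODE, which the authors did not count on. Motif matches were found as exact letters on both strands. Of the cell type markers, 1 is not reported here.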

Additional observations from a re-analysis of the deposited data

Results flagged for a closer look

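The test of the 24 h response against the 6 h response set apart 5 members, given as the log2 difference of the responses with the adjusted p of edgeR's quasi-likelihood test. The values were -0.94 for *SLC30A1* (adjusted p = 2.41e-05), 0.49 for *SLC39A10* (adjusted p = 0.0217), -0.27 for *SLC39A14* (adjusted p = 0.0367), -0.24 for *SLC39A1* (adjusted p = 0.0381) and -0.42 for *MT1L* (adjusted p = 0.0414). *SLC30A1* was higher in 3 of 3 NXP800 libraries than in any DMSO library at each time. Groups did not overlap, in either direction, for 62.0% of all tested genes at 6 h and 59.1% at 24 h. Such separation does not bear on the difference between the times. Among these 5, the call of *SLC30A1* alone was kept without each single library. Libraries of the 2 times had different shares of reads on no annotated gene, so time and library set cannot be told apart.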

How the results depend on the processing

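Over 63 single-gene results and 1303 alternatives, 1177 kept direction and side of the threshold, 65 lost the call, 56 gained it and 5 changed sign. In 33 results no alternative made a difference to either. The sign changes were those of *MT2A* at 6 h (-0.044 without DMSO 6 h replicate 3 and -0.022 without NXP800 6 h replicate 1, up to 0.12 without others), of the difference of the responses of *MT1G* (-0.092 without DMSO 6 h replicate 1, up to 0.53) and of that of *SLC39A8* (-0.0015 without DMSO 24 h replicate 1 and -0.078 without NXP800 24 h replicate 3, up to 0.18), and none of these was called. Counts of members called at 6 h (17 to 21) and 24 h (14 to 22) stayed within 1.5 times the main counts. Those over all genes ran from 6482 to 9953 at 6 h and from 7054 to 10411 at 24 h, against 8435 and 8953 in the main fit. For the difference of the responses, the count of 5 became 9 with a mean of at least 50 counts, 16 with the replicate block, 19 with the block and offsets for GC content and length, 1 at an adjusted p below 0.01, and 1 to 5 with a library left out. Over all genes the count of 4129 became 6284 with the block, 6574 with the block and offsets, and 2236 at an adjusted p below 0.01. It was 3899 of 12322 genes with a mean of at least 50 counts, and 3200 to 4154 with a library left out. With library size alone it was 4133, of which 2463 were positive and 1670 negative, against 1924 and 2205. The cause of these shifts was not tested. For the members, pairing by the replicate block changed no other call than those given above. Of the 19 other metal-handling genes tested, the block added calls for the difference of the responses of *SLC11A2* (0.22, adjusted p = 0.0264), *ATOX1* (0.39, adjusted p = 0.00321), *COX17* (-0.40, adjusted p = 0.0134) and *HIF1A* (-0.20, adjusted p = 0.0312). GC content and length were known for 14631 tested genes (91.6%) and all 27 tested members. The 3 libraries of a group, and counts of 27 to 134 for *MT1G* and 1 to 15 for *SLC30A3*, limit what could be detected.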
